A study of Mus musculus with 6 samples.

Results

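Scramblases and flippases set where phosphatidylserine sits in a membrane, and 8 of their genes were followed in tumour macrophages. A flippase is a P4-ATPase that uses ATP to carry phosphatidylserine and phosphatidylethanolamine to the inner face of a membrane, and most need a CDC50 subunit such as Tmem30a to leave the endoplasmic reticulum and work. A scramblase lets lipids pass both ways without ATP, so its opening brings phosphatidylserine to the outer face, where macrophages read it as a signal to engulf a dying cell. Macrophages carry these proteins themselves, and their own phosphatidylserine turnover is known to take part in engulfment and in membrane traffic.

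The 8 genes were taken by symbol from a table of 21760 gene symbols: the scramblase genes Xkr8, Ano6, Plscr1 and Plscr3, the P4-ATPase genes Atp11a, Atp11b and Atp8a1, and the subunit gene Tmem30a. All 8 had enough counts to be among the 15560 genes tested. RNA was sequenced from macrophages that had been sorted out of MC38 tumours, which derive from a mouse colon carcinoma line, 16 days after growth under the skin of C57BL6 mice. The tumours lacked Xkr8 and came from KO clone 1 (2 mice) or KO clone 2 (2 mice), or they were wild type (WT, 2 mice). The knockout was in the tumour cells and the macrophages came from the host. Xkr8 in these libraries is therefore taken as the host's own level, and it does not check the knockout. Whether tumour cells sorted along with the macrophages add to it was not tested. Each clone is a single line, so what its mice share cannot be told apart from the loss of Xkr8. The sources used here give neither the markers of the sort, nor the ages of the mice, nor how the knockout was made. In bulk RNA such as this, fewer cells of a type and less RNA per cell cannot be told apart.

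Library totals were 37090034 to 40022755 counts in the 4 KO libraries, 39173757 in WT mouse 1 and 20038047 in WT mouse 2. WT mouse 2 stood apart: the ribosomal precursor Rn45s took 24.64% of its counts, against 1.461% to 7.12% in the other libraries, and 16810 symbols were detected in it, against 18193 to 19250. Where the log2 fold change of a gene between KO and WT turned, or moved by over 1.5 times, without WT mouse 2, both values are given. The 8 macrophage markers were all present, with overlapping sums of 8065 to 9729 CPM (counts scaled to library size) in KO and 7350 to 8427 CPM in WT libraries. Of these 8, 3 were higher in all KO libraries, against 12.9% of all genes tested, and none of the 3 passed the test. Adgre1 stood at 766.9 to 965.9 CPM in KO libraries against 667.3 and 528.3 CPM in WT. Fcgr1 stood at 444.2 to 483.5 against 267.0 and 283.8, and Lyz2 at 2430 to 3336 against 1999 and 1608. Sums were higher in all KO libraries for T and NK cell genes (36.3 to 66.6 CPM against 10.9 to 18.2 CPM in WT), neutrophil genes (53.2 to 70.9 against 38.4 to 38.9), dendritic cell genes (18.9 to 31.7 against 8.87 to 13.0) and endothelial genes (45.8 to 59.9 against 21.3 to 26.0). All KO libraries were higher for 7 of the 8 T and NK cell genes and 4 of the 4 dendritic cell genes. The same held for 3 of the 5 neutrophil genes and 1 of the 3 endothelial genes, Pecam1. Pecam1 stood at 33.9 to 42.9 CPM in KO libraries against 13.0 and 14.9 CPM in WT. These counts stand against 12.9% of all genes tested that were higher in all KO libraries. Of the T and NK cell genes, 1 passed edgeR's test, Cd3g (adjusted p = 0.0281), against 0.135% of all genes tested. Cd3g stood at 7.42 to 14.9 CPM in KO libraries against 0.922 and 0.619 CPM in WT. DESeq2 called 5 of the 8 T and NK cell genes, against 3.21% of all genes. No neutrophil, dendritic cell or endothelial gene of these lists passed edgeR's test. Csf3r made up most of the neutrophil sum, and the neutrophil gene Cxcr2 was lower in all KO libraries (6.08 to 8.87 CPM against 11.9 and 12.9 CPM in WT). Sums were lower in all KO libraries for fibroblast genes (2350 to 3869 CPM against 4082 to 11930 CPM in WT), for epithelial or tumour cell genes (11.1 to 12.8 against 15.6 to 44.1) and for erythroid genes (0.432 to 4.69 against 4.95 to 17.8). The epithelial or tumour cell sum was mostly Cdh1. Cdh1 stood at 10.5 to 12.3 CPM in KO libraries, 15.1 CPM in WT mouse 1 and 43.1 CPM in WT mouse 2. Epcam, Krt8 and Krt18 stood at no more than 0.688 CPM and overlapped between KO and WT libraries. The erythroid sum held 2 genes. Hba-a1 stood at 0 to 4.14 CPM in KO libraries, 15.4 CPM in WT mouse 1 and 4.4 CPM in WT mouse 2. Alas2 overlapped, at 0.432 to 0.654 CPM in KO libraries against 2.35 and 0.55 CPM in WT. Defining genes with no count in at least 1 library included Ncr1, Cd79a, Ly6g, S100a9, Krt8, Krt18, Ppbp and Hba-a1. Most of the fibroblast sum was Col3a1 (1837 to 3215 CPM in KO against 3634 and 11320 CPM in WT), while Dcn was higher in all KO libraries (285.8 to 470.4 against 254.5 and 126.8). The part these other cells have in the levels below was not tested.

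None of the 8 genes passed the test between macrophages of KO and WT tumours. Plscr1 and Tmem30a were higher in all 4 KO libraries than in both WT libraries. For Plscr1 the difference was about as large without either WT library, and for Tmem30a it was near 0 without WT mouse 2. Xkr8 differed most between the clones, with both clone 2 libraries above both clone 1 libraries. The threshold was an adjusted p of 0.05 in edgeR's quasi-likelihood test with Benjamini-Hochberg adjustment over all genes tested, and 21 genes (0.135%) were called at it. Without WT mouse 2, 0 of the 8 were called, against 0.174% of all genes. At an unadjusted p below 0.05, 1 of the 8 genes was found (Plscr1), against 13.6% of all genes tested, and DESeq2 called 0 of the 8 against 3.21% of all genes. The 2 genes whose groups did not overlap, Plscr1 and Tmem30a, were both higher, against 12.9% of all genes tested that were higher without overlap. The log2 fold changes of the 8 genes had a median of 0.15, with 5 positive and 3 negative, and those of all genes had a median of 0.0. Without WT mouse 2 they had a median of 0.18, with 7 positive and 1 negative, where that of all genes was -0.01.

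**Figure D1:**
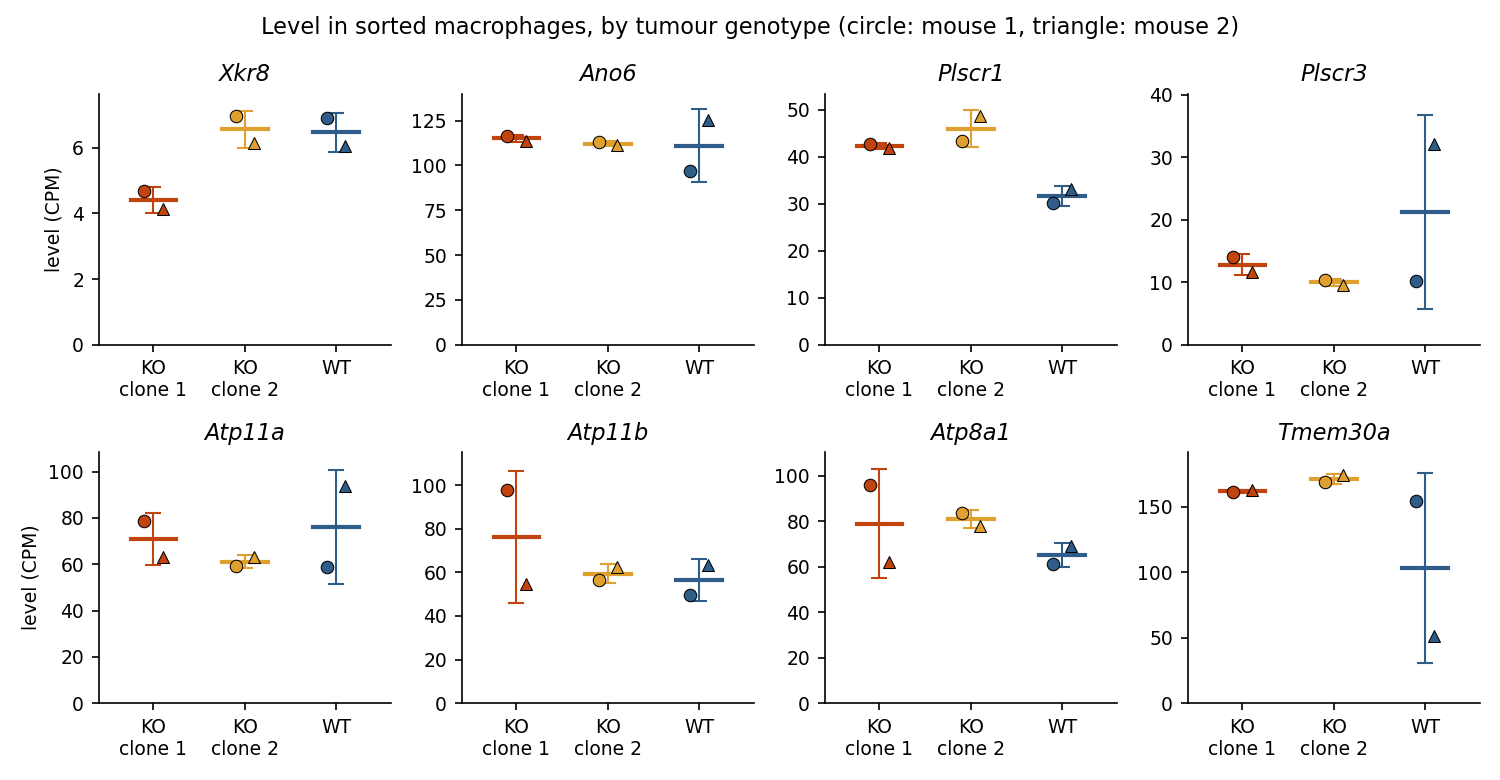
Level of each of the 8 genes in CPM (y axis, from 0) in each library, grouped by tumour as KO clone 1, KO clone 2 and WT; a circle is mouse 1, a triangle is mouse 2, the bar is the mean and the error bar 1 SD (n = 2 per group). The 4 KO libraries of Plscr1 lie between 41.8 and 48.8 CPM, above both WT libraries, and WT mouse 2 is far from WT mouse 1 for Plscr3 and Tmem30a.

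The promoters of 2 genes are shown because these 2 were the ones higher in all KO libraries. Plscr1 encodes a protein that is known to be induced by interferon, and its window was searched for the elements that interferon-activated factors bind. Each window is 300 bases, from 250 bases before a RefSeq start site to 50 after it, from RefSeq on GRCm38.p6, written 5′ to 3′ on the strand of the gene. The Plscr1 window lies at chr9:92249944-92250243 on the plus strand and the Tmem30a window at chr9:79793381-79793680 on the minus strand. Capitals mark the match to the GAS motif (gamma-activated sequence, TTCNNNGAA).
Plscr1 promoter: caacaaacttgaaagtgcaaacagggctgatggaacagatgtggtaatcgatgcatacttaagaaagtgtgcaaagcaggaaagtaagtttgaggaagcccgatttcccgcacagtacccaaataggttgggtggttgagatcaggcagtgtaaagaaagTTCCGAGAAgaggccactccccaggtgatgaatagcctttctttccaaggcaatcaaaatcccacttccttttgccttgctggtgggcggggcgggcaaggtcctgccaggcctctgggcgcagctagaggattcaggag
Tmem30a promoter: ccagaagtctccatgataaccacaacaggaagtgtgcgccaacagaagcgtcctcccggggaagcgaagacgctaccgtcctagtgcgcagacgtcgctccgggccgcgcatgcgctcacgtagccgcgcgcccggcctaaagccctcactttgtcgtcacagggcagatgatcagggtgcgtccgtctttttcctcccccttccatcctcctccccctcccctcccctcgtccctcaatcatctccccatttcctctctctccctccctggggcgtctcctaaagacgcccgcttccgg
The Plscr1 match began at base 161 of the window, 90 bases before that RefSeq start site. The GENCODE gene bounds given below for Plscr1 begin upstream of this window, so the match lies within them. Of 32851 mouse promoter windows of the same length, 8.3% held a match to this motif on either strand. The interferon-stimulated response element, searched as GAAA and GAAA with 2 free bases between them on both strands, matched in 3.44% of windows and in neither of these. A GC box (GGGCGG, in 35.7% of windows) was matched at overlapping positions of the Plscr1 window, and the Tmem30a window held none of the 6 motifs searched. The other motifs were CACGTG (7.15% of windows), CCAAT (37.4%) and TATAAA (13.6%), and neither gene's window held one. Windows were found for 7 of the 8 genes, with Xkr8 unmatched and 3 windows for Plscr3. Plscr1 was the only one of these genes with a GAS match, and whether any factor binds this match was not tested.

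Xkr8 is the scramblase that caspases cleave and so switch on in dying cells. The gene (ENSMUSG00000037752.4) lies at chr4:132724897-132732546 on the minus strand (GRCm38). Its level in the sorted macrophages was 4.70 and 4.14 CPM with clone 1 tumours and 6.97 and 6.16 CPM with clone 2 tumours. With WT tumours it was 6.90 and 6.05 CPM. Both clone 1 libraries were below the other 4, and clone 2 and WT libraries overlapped. The means were 4.42 ± 0.397 CPM in clone 1, 6.56 ± 0.575 CPM in clone 2 and 6.48 ± 0.596 CPM in WT libraries (SD, n = 2 each). Over both clones the log2 fold change was -0.24 ± 0.27 (SE), with a 95% interval of -0.88 to 0.40 and an adjusted p of 0.637, and it was -0.35 ± 0.31 without WT mouse 2. For clone 1 against WT it was -0.55 ± 0.27 (interval -1.19 to 0.08, adjusted p = 0.722), and for clone 2 against WT it was 0.02 ± 0.26 (interval -0.62 to 0.65, adjusted p = 0.976). Clone 2 over clone 1 gave 0.57 ± 0.26 (interval -0.06 to 1.20, unadjusted p = 0.0702, adjusted p = 1.0), and 0.48 to 0.66 with single libraries left out. These values rest on 88 to 314 counts per library, the fewest of the 8 genes.

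Xkr4 and Xkr9, the other Xkr proteins known to be activated by caspases, were near 0 in these macrophages. Xkr4 had 0 to 13 counts and Xkr9 0 to 5 counts per library. Xkr8 thus made up 93.3% to 100% of the level per length of these 3 genes. The 5 genes whose pattern over the 6 libraries was most like that of Xkr8, among 10313 genes with a mean of at least 5 CPM, were Dtwd2, Bend4, Stxbp4, Tmem256 and Zbtb5. Their root-mean-square differences from Xkr8, on centred log2(CPM + 1), were 0.0902, 0.0958, 0.101, 0.111 and 0.117. None of the other 7 genes came nearer than Ano6, at 0.295.

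Ano6 (TMEM16F) is the scramblase that calcium opens, best known from activated platelets. The gene (ENSMUSG00000064210.7) lies at chr15:95790843-95974751 on the plus strand. It had 116.5 and 113.6 CPM with clone 1 tumours, 113.2 and 111.1 CPM with clone 2 tumours, and 96.6 and 125.4 CPM with WT tumours. The WT libraries were the lowest and the highest of the 6, and the KO libraries lay between them. Ano6 was the steadiest of the 8 genes among KO libraries, with a coefficient of variation of 1.96%. KO libraries averaged 113.6 ± 2.22 CPM (SD, n = 4) and WT libraries 111.0 ± 20.4 CPM (SD, n = 2). KO over WT gave a log2 fold change of 0.03 ± 0.17 (SE, interval -0.35 to 0.42, adjusted p = 0.92), 0.21 ± 0.13 without WT mouse 2, and -0.13 ± 0.13 without WT mouse 1. Its exons share 214 and 122 bases with the antisense genes A130051J06Rik and Gm49172, neither of which is in the table.

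Plscr1 encodes a calcium-binding phospholipid scramblase that is also known as an interferon-induced antiviral protein. The gene (ENSMUSG00000032369.13) lies at chr9:92249750-92272278 on the plus strand, and its promoter is the first of the windows printed above. It stood at 42.7 and 41.8 CPM with clone 1 tumours, 43.3 and 48.8 CPM with clone 2 tumours, and 30.1 and 33.2 CPM with WT tumours. All 4 KO libraries were above both WT libraries, and the WT pair was close together. The mean was 44.2 ± 3.15 CPM in KO libraries (SD, n = 4) and 31.7 ± 2.2 CPM in WT libraries (SD, n = 2). The log2 fold change was 0.48 ± 0.17 (SE, interval 0.10 to 0.86), which is 1.40-fold, with an unadjusted p of 0.0206 and an adjusted p of 0.318. Leaving out WT mouse 2 gave 0.53 ± 0.16 and leaving out WT mouse 1 gave 0.42 ± 0.16; it lay between 0.42 and 0.53 whichever single library was left out. By clone, it was 0.42 ± 0.20 for clone 1 (adjusted p = 0.722) and 0.54 ± 0.20 for clone 2 (adjusted p = 0.426), 2 comparisons that share the WT libraries.

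Plscr2, the closest relative of Plscr1, shares sequence with it. Of the 31-base words of the longest coding transcript of Plscr1, 21.4% also occur in Plscr2 or the predicted gene Gm5530, so the split of reads between these genes is uncertain. Plscr2 stood at 14.3 and 21 CPM with clone 1 tumours, 16.8 and 15.3 CPM with clone 2 tumours, and 10 and 4.54 CPM with WT tumours. It too was higher in all KO libraries, by 1.19 ± 0.34 on the log2 scale (SE, adjusted p = 0.276), or 0.72 ± 0.25 without WT mouse 2. The sum of Plscr1 and Plscr2, chosen after the data were seen, was 57.0 to 64.1 CPM in KO libraries, against 40.1 and 37.8 CPM in WT libraries. This sum gave 0.65 ± 0.16 on the log2 scale (SE, adjusted p = 0.196). T and NK cell, neutrophil, dendritic and endothelial marker sums, and the macrophage markers Adgre1, Fcgr1 and Lyz2, moved the same way as Plscr1 and Plscr2, and their part was not tested.

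The 20 interferon-stimulated genes listed beside Plscr1 stood in the same direction for the most part. Of these 20, 18 had a positive and 2 a negative log2 fold change in KO over WT, with a median of 0.74 against 0.0 over all genes. With all 6 libraries, none passed the adjusted threshold. At an unadjusted p below 0.05 in edgeR's test there were 15, all with higher KO values, against 6.25% of all genes in that direction. DESeq2 called 8 of the 20, against 3.21% of all genes. Without WT mouse 2, all 20 had a positive value, with a median of 0.99 against -0.01 over all genes. Irf7, which drives interferon genes, stood at 654.0 and 510.9 CPM with clone 1 tumours, 510.8 and 486.9 CPM with clone 2 tumours, and 174.2 and 209.1 CPM with WT tumours. KO over WT gave 1.5 ± 0.21 for Irf7 (log2, SE, adjusted p = 0.0561). Ifi44, an interferon-induced protein, gave 2.12 ± 0.29 (adjusted p = 0.055), the chaperone gene Rtp4 1.5 ± 0.23 (adjusted p = 0.0638) and Ifit3, an antiviral effector, 1.02 ± 0.20 (adjusted p = 0.119). Bst2 (tetherin) was one of those with a negative value, at -0.37 ± 0.43 (adjusted p = 0.636), with 240.7 to 288.7 CPM in KO libraries, against 145.9 CPM in WT mouse 1 and 532.2 CPM in WT mouse 2, and it was 0.82 ± 0.17 without WT mouse 2 (adjusted p = 0.111). The list was chosen with earlier results of these data known, so its direction is no independent evidence about Plscr1.

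Plscr3 encodes the scramblase of the same family that is known from mitochondria, where cardiolipin is its lipid. The gene (ENSMUSG00000019461.12) lies at chr11:69846376-69852058 on the plus strand. It stood at 14.0 and 11.6 CPM with clone 1 tumours, 10.4 and 9.62 CPM with clone 2 tumours, and 10.2 and 32.2 CPM with WT tumours. WT mouse 2 was far above the other 5 libraries, and WT mouse 1 lay within the KO range. The log2 fold change over all libraries was -0.88 ± 0.41 (SE, interval -1.83 to 0.06, adjusted p = 0.38). It was 0.14 ± 0.24 (adjusted p = 0.94) without WT mouse 2, and -1.48 ± 0.21 (adjusted p = 0.0026) without WT mouse 1, a setting that called 37.5% of all genes. Plscr3 overlaps Tnk1 on the opposite strand over 891 exon bases, and 29.4% of its 31-base words occur there. Tnk1 stood at 0 to 0.267 CPM in KO libraries and 0.0879 and 0.757 CPM in WT libraries, and the sum of both genes gave -0.90 ± 0.41 (adjusted p = 0.38).

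Atp8a1 encodes a phosphatidylserine flippase of intracellular membranes, with its gene (ENSMUSG00000037685.15) at chr5:67618140-67847434 on the minus strand. It stood at 95.8 and 62.1 CPM with clone 1 tumours, 83.6 and 78.1 CPM with clone 2 tumours, and 61.3 and 68.9 CPM with WT tumours. Both clone 2 libraries were above both WT libraries, while the clone 1 mice lay on either side of the higher WT mouse. The mean was 79.9 ± 14.0 CPM in KO libraries (SD, n = 4) and 65.1 ± 5.37 CPM in WT libraries (SD, n = 2). The log2 fold change was 0.30 ± 0.21 (SE, interval -0.18 to 0.77, adjusted p = 0.474), and 0.36 ± 0.23 without WT mouse 2.

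Atp11a and Atp11b encode related flippases, of the plasma membrane for Atp11a and of endosomes and the Golgi for Atp11b. Atp11a (ENSMUSG00000031441.15) lies at chr8:12757014-12868728 and Atp11b (ENSMUSG00000037400.17) at chr3:35754106-35856276, both on the plus strand. Caspases are known to cleave and inactivate the Atp11a protein in dying cells, whereas their cut activates Xkr8. Atp11a stood at 78.8 and 63.1 CPM with clone 1 tumours, 59.1 and 63.1 CPM with clone 2 tumours, and 58.8 and 93.6 CPM with WT tumours. The WT mice were again the lowest and the highest. Its log2 fold change was -0.20 ± 0.23 (SE, interval -0.73 to 0.32, adjusted p = 0.628), turning to 0.14 ± 0.18 without WT mouse 2.

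Atp11b stood at 97.7 and 54.7 CPM with clone 1 tumours, 56.3 and 62.4 CPM with clone 2 tumours, and 49.7 and 63.4 CPM with WT tumours. Clone 1 mouse 1 was far above the other 5 libraries, which overlapped. A log2 fold change of 0.26 ± 0.28 (SE, interval -0.38 to 0.90, adjusted p = 0.608) was left at 0.03 without clone 1 mouse 1, and was 0.42 ± 0.32 without WT mouse 2. The same library was the highest of the 6 for Atp8a1 as well, and the log2 fold change of Atp8a1 for clone 1 was -0.06 without it, against 0.28 with all libraries. Among KO libraries Atp11b had the largest coefficient of variation of the 8 genes, at 29.8%.

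Tmem30a (CDC50A) is the subunit that the products of Atp8a1, Atp11a and Atp11b need. The gene (ENSMUSG00000032328.12) lies at chr9:79768943-79793507 on the minus strand, and its promoter is the second of the windows printed above. It stood at 160.8 and 162.6 CPM with clone 1 tumours, 168.5 and 173.9 CPM with clone 2 tumours, and 154.1 and 51.6 CPM with WT tumours. All 4 KO libraries were above both WT libraries, but WT mouse 1 was close to them and WT mouse 2 far below. KO libraries averaged 166.4 ± 5.95 CPM (SD, n = 4) and WT libraries 102.8 ± 72.5 CPM (SD, n = 2). The log2 fold change was 0.69 ± 0.38 (SE, interval -0.20 to 1.58, adjusted p = 0.417). With WT mouse 2 left out it was 0.09 ± 0.13 (adjusted p = 0.93), and with WT mouse 1 left out it was 1.70 ± 0.15 (adjusted p = 0.000921). The related subunits were nearly silent: Tmem30b had 0 to 4 and Tmem30c 0 to 3 counts per library, and Tmem30a made up 99.8% to 100% of the level per length of the 3.

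**Figure D2:**
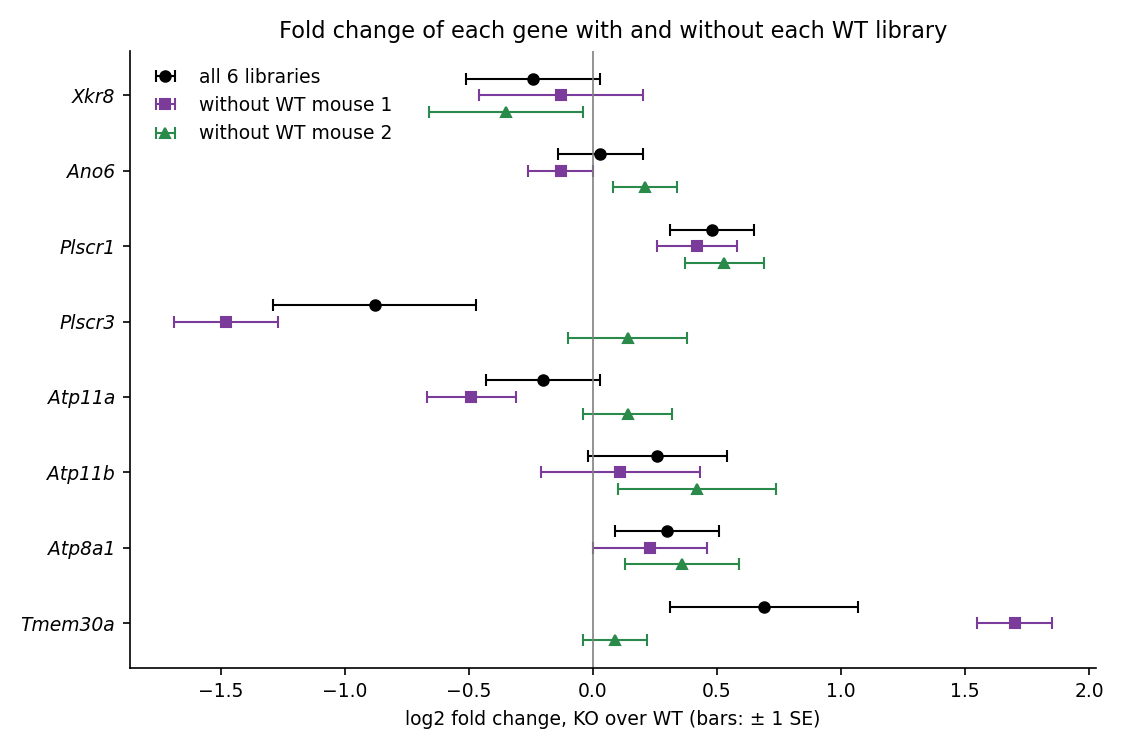
Log2 fold change of KO over WT (x axis) for each of the 8 genes, with all 6 libraries (black circles), without WT mouse 1 (purple squares) and without WT mouse 2 (green triangles); bars are 1 SE. Plscr1 stays between 0.42 and 0.53, while Plscr3 runs from -1.48 to 0.14 and Tmem30a from 0.09 to 1.70.

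The pair of WT libraries differed from each other by the GC content of the transcript. Over 13805 genes the log2 ratio of WT mouse 2 to WT mouse 1 had a Spearman rho of 0.52 with the GC content of the longest coding transcript. The same value was 0.05 for the clone 1 pair and 0.13 for the clone 2 pair; genes are not independent replicates, so no p is given. Tmem30a, with a GC content of 39.2% that only 3.3% of genes were below, had a ratio of 0.335 between the WT mice. Of all genes, 4.3% had a lower ratio than Tmem30a. Plscr3 had 55.4% GC, with 77.3% of genes below it, and a ratio of 3.15, with 97.4% of genes below it. The other 6 genes had ratios of 0.878 (Xkr8) to 1.59 (Atp11a). Atp11b, at 41.0% GC, had a ratio of 1.28 and so did not go the way of Tmem30a. Whether GC content accounts for the values of Tmem30a and Plscr3 in WT mouse 2 was not tested.

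**Figure D3:**
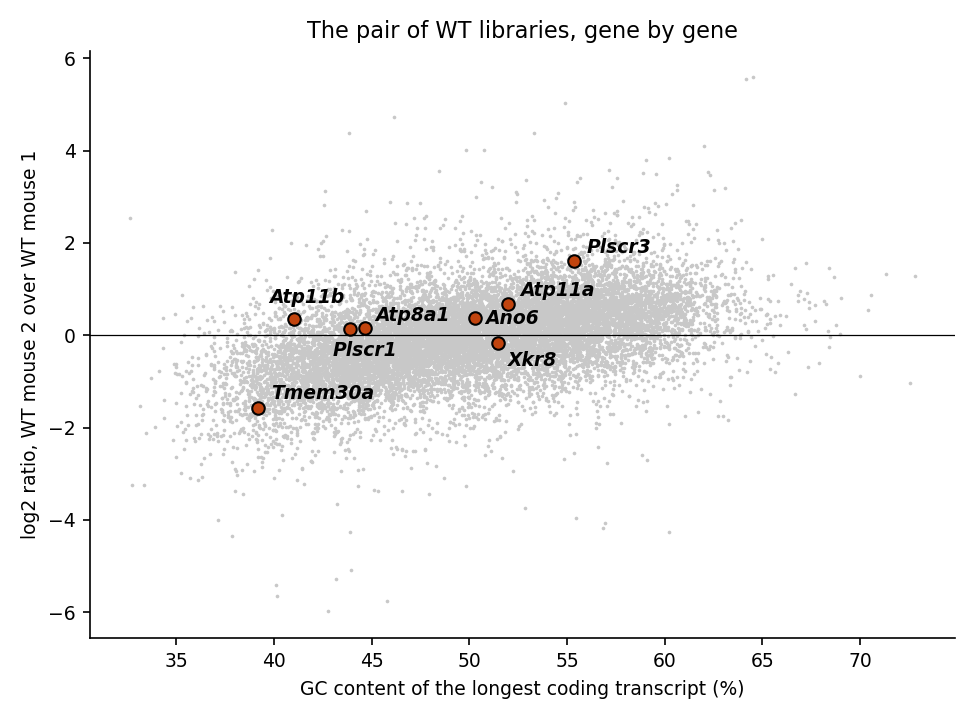
Log2 ratio of WT mouse 2 over WT mouse 1 (y axis) against the GC content of the longest coding transcript in percent (x axis), for 13805 genes (grey) and the 8 genes (red, named). Tmem30a lies low at 39.2% GC and Plscr3 high at 55.4% GC, while the other 6 lie closer to 0.

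Per length of exon, Tmem30a was the highest of the 8 genes and Xkr8 the lowest. Levels in CPM per kilobase of all annotated exons, as the mean of 6 libraries, were 25.7 for Tmem30a (range 9.14 to 30.8), 16.2 for Plscr1 (12.2 to 19.8), 9.19 for Ano6 (7.87 to 10.2) and 6.98 for Atp11b (5.41 to 10.6). They were 6.22 for Atp11a (5.27 to 8.39), 5.25 for Atp8a1 (4.3 to 6.71), 4.66 for Plscr3 (3.06 to 10.2) and 1.35 for Xkr8 (0.96 to 1.62). Between neighbours in this order the ranges were apart only for Plscr1 and Ano6 and for Plscr3 and Xkr8. Without WT mouse 2 they were apart for Tmem30a (27.3 to 30.8) and Plscr1 (12.2 to 19.8) as well. With the length of the longest coding transcript in place of all exons, Ano6 came above Plscr1, and the other 6 kept their places. Of all genes tested, 88.4% had a lower level per length than Tmem30a and 31.4% a lower one than Xkr8.

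The 3 flippase genes together held 25.3 ± 3.99% (SD, n = 4) of the level per length of the 15 P4-ATPase genes in KO libraries and 25.6 ± 3.46% (SD, n = 2) in WT libraries. The largest shares belonged to others. Atp10a, a flippase known to prefer phosphatidylcholine in its human form, held 20.9 ± 4.14% in KO and 16.9 ± 2.77% in WT libraries. Atp8b2 held 16.8 ± 2.15% in KO and 23.7 ± 7.96% in WT libraries. WT mouse 1 and WT mouse 2 had 18.9% and 14.9% for Atp10a, and 18.0% and 29.3% for Atp8b2. The order depended on the length used. By longest coding transcript, Atp8b2 held 17.3 ± 2.41% in KO and 23.3 ± 7.04% in WT libraries. Atp10a then held 14.7 ± 3.06% in KO and 11.5 ± 2.3% in WT libraries, Atp9b 12.4 ± 1.08% and 15.6 ± 1.63%, and Atp11b 12.6 ± 3.02% and 11.2 ± 0.7%. Among the 5 Plscr genes, Plscr1 held 64.0 ± 3.35% in KO and 57.1 ± 7.72% in WT libraries. WT mouse 1 had 62.6%, within the KO range of 59.9% to 68.1%, and WT mouse 2 had 51.7%.

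**Figure D4:**
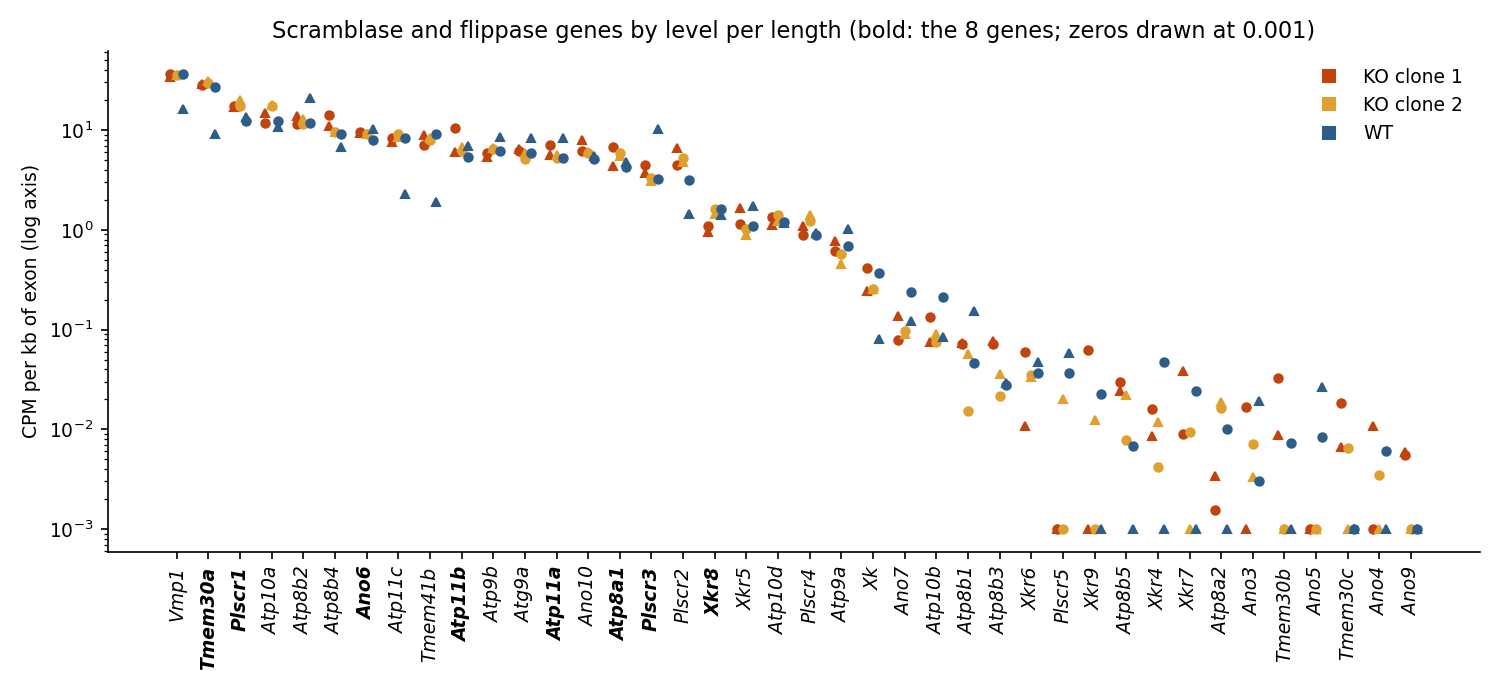
Level per length (CPM per kilobase of exon, log axis, zeros drawn at 0.001) of the scramblase, flippase and CDC50 genes in each library, ordered by mean; circles are mouse 1, triangles mouse 2, colours the tumour. The 8 genes (bold) lie in the upper part of the order, Tmem30a at 25.7 on average and Xkr8 at 1.35, and WT mouse 2 is the low point of Tmem30a and the high point of Plscr3.

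Other genes of phosphatidylserine transport gave no call either. Of 33 such genes tested, none passed in edgeR's test between KO and WT libraries. They formed 4 groups: scramblases, P4-ATPases, partners and regulators, and phosphatidylserine supply and export. At an unadjusted p below 0.05 in edgeR's test, 5 of the 33 were found, against 13.6% of all genes tested. DESeq2 called 1 of the 33, against 3.21% of all genes. The 33 genes had a median log2 fold change of 0.17, with 18 positive and 15 negative. Without WT mouse 2 the median was -0.01 over 35 genes tested, with 17 positive and 18 negative, and again none passed. Of the 2 other CDC50 genes none had the counts to be tested.

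Of 10 other scramblase genes tested of 18, 6 had a positive and 4 a negative log2 fold change, with a median of 0.30 against 0.0 over all genes. Vmp1 and Tmem41b, scramblases of the endoplasmic reticulum, gave 0.44 ± 0.29 and 0.52 ± 0.51 (SE, adjusted p = 0.466 and 0.587). Both were low in WT mouse 2: Vmp1 stood at 131.3 to 142.4 CPM in KO libraries and 139.8 and 63.3 CPM in WT libraries, and Tmem41b at 41.4 to 51.9 CPM in KO libraries and 54.0 and 11.1 CPM in WT libraries. Without WT mouse 2 Vmp1 gave -0.05 ± 0.13 and Tmem41b -0.22 ± 0.16, and the median of the scramblase group was -0.05. Atg9a, the scramblase of autophagy, gave -0.26 ± 0.20 (adjusted p = 0.495; -0.03 ± 0.17 without WT mouse 2), Ano10 0.30 ± 0.19 (adjusted p = 0.448) and Ano7 -0.88 ± 0.48 (adjusted p = 0.416).

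Of 10 other P4-ATPase genes tested of 12, 5 had a positive and 5 a negative log2 fold change, with a median of -0.09. Atp8b4 gave 0.48 ± 0.23 (SE, adjusted p = 0.39), with 63.5 to 95 CPM in KO libraries and 60.7 and 44.8 CPM in WT libraries, and 0.26 ± 0.24 without WT mouse 2. Atp10a gave 0.43 ± 0.21 (adjusted p = 0.395), Atp8b2 -0.39 ± 0.24 (adjusted p = 0.449; 0.07 ± 0.16 without WT mouse 2) and Atp9a -0.48 ± 0.30 (adjusted p = 0.448; -0.21 ± 0.32 without WT mouse 2). The median of the group was 0.06 without WT mouse 2. For Atp10a both clone 2 libraries (96.9 and 100.4 CPM) were above both clone 1 libraries (65.3 and 83.4 CPM), and the WT libraries had 68.1 and 59.8 CPM.

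The partners included proteins that bind Xkr8. Basigin and neuroplastin, encoded by Bsg and Nptn, escort Xkr8 to the plasma membrane. Bsg stood at 292.7 and 334.5 CPM with clone 1 tumours, 244.1 and 251.1 CPM with clone 2 tumours, and 344.0 and 455.1 CPM with WT tumours. All KO libraries were below both WT libraries, with a log2 fold change of -0.51 ± 0.21 (SE, adjusted p = 0.351), or -0.32 ± 0.20 without WT mouse 2. Nptn stood at 190.1 and 191.3 CPM with clone 1 tumours, 230.6 and 237.5 CPM with clone 2 tumours, and 180.4 and 62.8 CPM with WT tumours, a log2 fold change of 0.80 ± 0.39 (adjusted p = 0.389). Like Tmem30a, it was close to the KO libraries in WT mouse 1 and low in WT mouse 2, and gave 0.21 ± 0.18 without WT mouse 2.

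Of 8 genes of phosphatidylserine supply and export, 3 had a positive and 5 a negative log2 fold change, with a median of -0.12. Ptdss1 and Ptdss2, the synthases that make phosphatidylserine, gave 0.17 ± 0.16 and -0.50 ± 0.26 (SE, adjusted p = 0.572 and 0.401), and Pisd, which turns it into phosphatidylethanolamine, 0.26 ± 0.16 (adjusted p = 0.44). Abca7, a lipid exporter, stood at 58.1 to 62.4 CPM in KO libraries and 70.1 and 129.1 CPM in WT libraries, with a log2 fold change of -0.74 ± 0.24 (adjusted p = 0.297), or -0.26 ± 0.13 without WT mouse 2. Abca1, the cholesterol and phospholipid exporter, gave -0.06 ± 0.29 (adjusted p = 0.914), and Osbpl8, which brings phosphatidylserine to the plasma membrane, 0.28 ± 0.29 (adjusted p = 0.611). Leaving out WT mouse 2 brought Ptdss1 to 0.08 ± 0.15, Ptdss2 to -0.07 ± 0.20 and Pisd to 0.14 ± 0.14. It turned Abca1 to 0.25 ± 0.31, Osbpl8 to -0.07 ± 0.28 and the median of the group to 0.02.

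**Figure D5:**
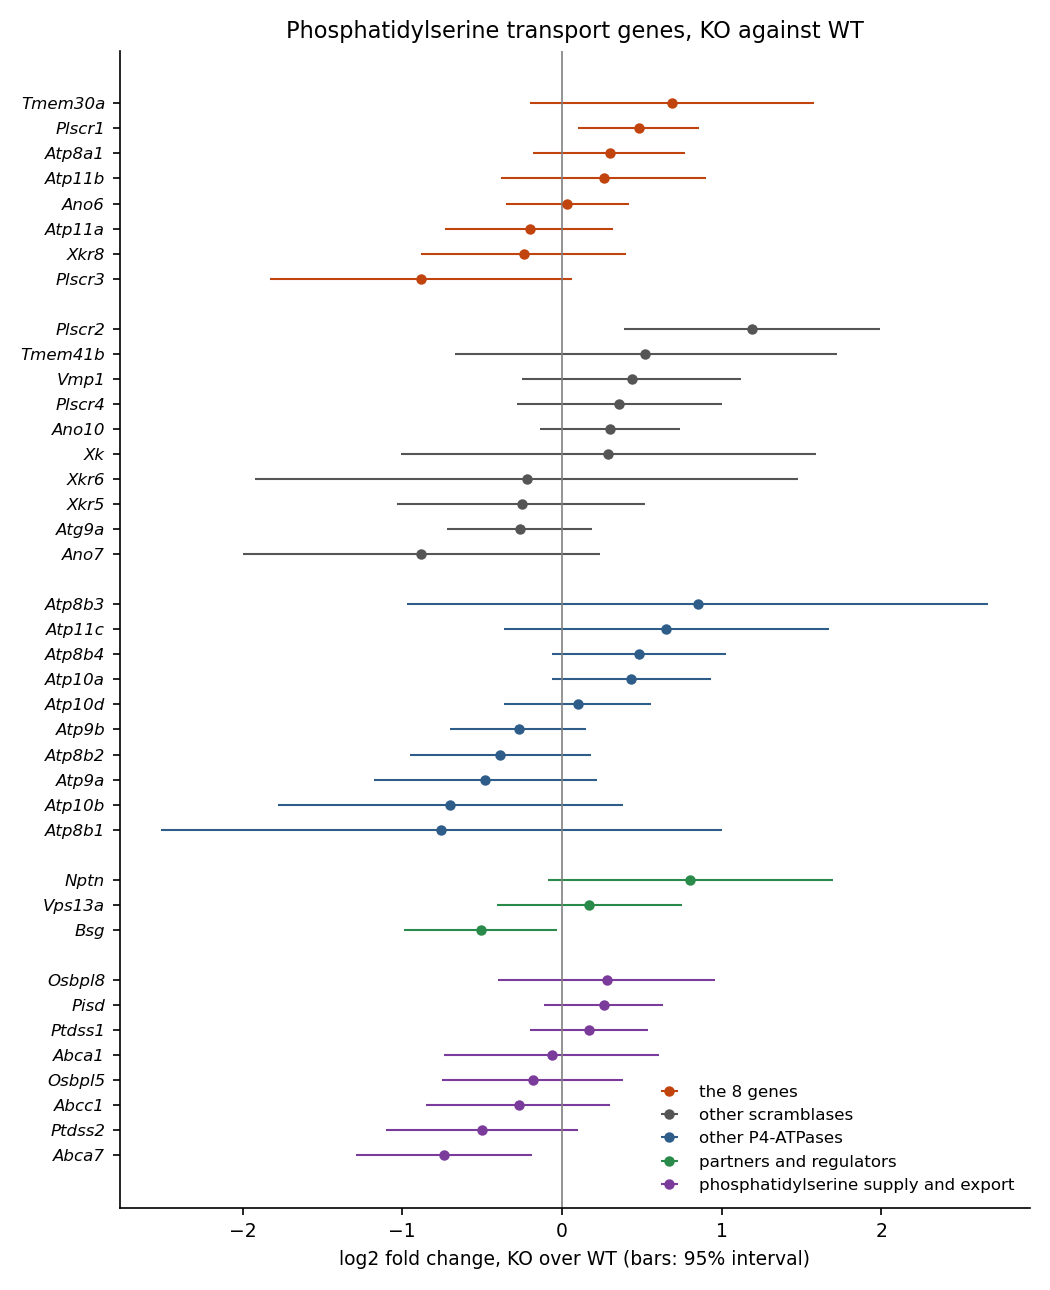
Log2 fold change of KO over WT (x axis) with its 95% interval (bars) for the 8 genes and most of the other tested genes of phosphatidylserine transport, by group. The intervals of Plscr1 and Plscr2 lie above 0 and those of Bsg and Abca7 below 0 before adjustment, and no gene shown passed after adjustment.

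By clone, 0 of the 8 genes passed the same test against WT in either clone, where 1 gene (0.00643%) was called in each comparison. At an unadjusted p below 0.05 there were 0 of the 8 for clone 1 (7.1% of all genes) and 1 for clone 2, Plscr1 (11.3% of all genes). DESeq2 called 0 of the 8 in both, against 1.74% of all genes for clone 1 and 2.99% for clone 2. Groups did not overlap for 3 of the 8 with clone 1 tumours, Plscr1 and Tmem30a higher (17.4% of all genes) and Xkr8 lower (15.1% of all genes). With clone 2 tumours they did not overlap for 3 of the 8, Plscr1, Atp8a1 and Tmem30a, all higher, against 26.5% of all genes. The clone comparisons share their WT libraries. Without WT mouse 1, Plscr3 and Tmem30a were called for clone 1, where 34.5% of all genes were called, and Plscr3, Tmem30a and Atp11a for clone 2, where 40.2% were. The median log2 fold change of the 8 genes was 0.16 for clone 1, where that of all genes was 0.02, and 0.04 for clone 2, where that of all genes was -0.03.

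Between clone 2 and clone 1, 0 of the 8 genes and 0 of all genes (0.0%) passed edgeR's test. None of the 8 had an unadjusted p below 0.05, against 3.23% of all genes, and DESeq2 called 0 of the 8 against 0.752% of all genes. Xkr8, Plscr1 and Tmem30a were higher in both clone 2 libraries than in both clone 1 libraries, against 21.8% of all genes. Ano6, Plscr3 and Atp11a were lower in both, against 22.7% of all genes. Xkr8 had the largest difference of the 8 (0.57 ± 0.26, SE), while the others lay between -0.36 and 0.12.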

How the data were processed

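Macrophages from 6 mice were grouped by tumour genotype and by clone, following the labels. Per the labels' protocols, total RNA was made into TruSeq libraries after ribosomal RNA depletion. The deposited table holds expected counts per gene symbol, as unscaled whole numbers. The submitters' processing notes name Salmon 0.7.2 and mm10. The transcript set, the filters, the use of strand and the division of reads between similar genes were not stated in these sources. Since all deposited values were whole, rounding before the tests changed none.

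Genes that passed edgeR's filterByExpr (minimum count 10, minimum total 15) entered edgeR's quasi-likelihood F test (edgeR 4.0.16, R 4.3.3) with TMM factors. KO against WT came from a fit with 2 genotype levels, and the clone comparisons from a 3-group fit with a common spread. P-values are two-sided and were adjusted by Benjamini-Hochberg over all 15560 genes tested. The standard error is the size of the log2 fold change divided by the square root of F, and 95% intervals use the degrees of freedom of that test. Mice with tumours of 1 clone entered as replicates, although they are not independent units of the knockout. CPM uses TMM-scaled library sizes, where 1 count is worth 0.022 to 0.0688 CPM. Lengths, positions, overlaps and shared 31-base words come from GENCODE M21 (GRCm38). GC ratios used log2(CPM + 0.5).

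The 8 genes and all gene lists were chosen with earlier results of these data known. Beside the 8 genes, the text names, from each list, genes that passed, the 3 highest per length and the 3 smallest p. Tnk1, Xkr4, Xkr9 and single cell type markers were added after their values were seen. Some genes that this rule allows are not reported here. The fits were tested on simulated counts. Alternatives were RLE factors, DESeq2 1.42.0, 2 other filters, the mouse number as a block, leaving out Rn45s, leaving out each library, and the mean of the clones. Summing overlapping or similar genes and the P4-ATPase share by coding transcript were added after the data were seen.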

Additional observations from a re-analysis of the deposited data

Results flagged for a closer look

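Of 36 genes examined for a library far from the others among the 4 KO libraries, 2 had one, where chance gives about 1 in 20. Ano10, an anoctamin, stood at 46.7 CPM in clone 1 mouse 2, and its distance to the next library was 0.84 of the range of the group. Irf7 stood at 654.0 CPM in clone 1 mouse 1, with a distance of 0.856 of the range.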

How the results depend on the processing

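Of 400 values of the 8 genes under alternatives, 373 kept their direction and their side of the threshold, 20 turned in direction and 7 newly passed it. The 7 newly passed in fits without WT mouse 1: Plscr3 and Tmem30a against WT for both genotypes combined and for each clone, and Atp11a for clone 2 (-0.60, adjusted p = 0.033). With 2 mice per group, such fits assume that the lone WT library varies like the others.

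Between KO and WT, 21 genes were called in all, against 499 with DESeq2, 111 with no filter beyond 1 count, 1 for the mean of the clones, and 1 to 6020 with single libraries left out (28 without WT mouse 2, 6020 without WT mouse 1). Clone 1 against WT gave 1, against 271 with DESeq2, 123 without the filter, 0 with at least 5 CPM in 2 libraries, and 0 to 5535 with libraries left out. Clone 2 against WT gave 1, against 9 with RLE factors, 465 with DESeq2, 229 without the filter, 0 with at least 5 CPM, 8 without Rn45s, and 0 to 6445 with libraries left out. Clone 2 against clone 1 gave 0, against 117 with DESeq2, 53 without the filter, and 0 to 87 with libraries left out. Of the 8 genes, 0 to 2 were called for KO, 0 to 2 for clone 1 and 0 to 3 for clone 2 with libraries left out. The cause was not tested.

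The filter of at least 5 CPM turned Ano6 to -0.02 for KO against WT, and Xkr8 to -0.04 and Ano6 to -0.05 for clone 2. With single libraries left out, log2 fold changes turned for KO in Ano6 (-0.13 to 0.21), Plscr3 (-1.48 to 0.14) and Atp11a (-0.49 to 0.14). They turned for clone 1 in Ano6 (-0.11 to 0.22), Plscr3 (-1.32 to 0.30), Atp11a (-0.39 to 0.24), Atp11b (-0.04 to 0.80) and Atp8a1 (-0.06 to 0.56). They turned for clone 2 in Xkr8 (-0.09 to 0.13), Ano6 (-0.15 to 0.19), Atp11a (-0.60 to 0.03) and Atp11b (-0.08 to 0.24), and between clones in Atp11b (-0.71 to 0.12) and Atp8a1 (-0.24 to 0.38). By coding transcript, the share of the 3 flippases among P4-ATPases was 29.6 ± 4.39% in KO and 28.5 ± 2.59% in WT libraries.

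With the mouse number as a block, 15 genes were called for KO against WT and 0 for clone 1 and clone 2 against WT, and no call among the 8 genes changed. Over genes, deviations of same-numbered mice correlated at -0.281 (WT and clone 1), 0.0499 (WT and clone 2) and 0.22 (the clones). With 2 mice, each group gives a single difference, so these values cannot decide whether the numbers pair the samples.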
